A study of Mus musculus with 4 samples.

Results

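Neurotensin-dominant cells are enteroendocrine cells of the mouse intestine in which Nts, the gene of the peptide neurotensin, gave more UMIs (unique molecular identifiers, barcodes that count captured RNA molecules) than Sst, Gip, Ghrl, Gcg or Cck. They were selected on their measured RNA. Cells entered with 500 or more detected genes and no more than 20% mitochondrial UMIs, and a cell was a member where Nts was the highest of these 6 hormone genes and made up at least 2% of its UMIs, with Ins1 and Ins2 together under 1%. The rule found 148 members among 4602 kept cells at embryonic day 17.5 (E17.5), 88 among 3788 in the adult and 60 among 3184 after irradiation, 296 members of 11574 kept cells in these 3 libraries. The counts of members and their Nts levels follow from the rule and are given as a description.

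The study measured RNA in single cells from mice with a Bmi1-GFP reporter, in which green fluorescent protein is made from the Bmi1 locus, so that cells transcribing this Polycomb gene can be sorted. Epithelial cells were isolated from the intestine by flow cytometry and sequenced with the 10x Chromium 3' kit. There were 4 groups of 1 library each, all of the genotype Bmi1-GFP: embryos of E12.5, embryos of E17.5, unirradiated adult mice and irradiated adult mice. For stages from E14.5 on, the protocol names the small intestine as the tissue. The labels give no radiation dose, no time after irradiation, no number or sex of animals and no sorting gates. With 1 library a group there is no replicate check between stages or after irradiation, and the intervals given below cover counting error only.

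Neurotensin is released after a meal by scattered endocrine cells of the lower small intestine, long called N cells, and acts on gut motility, on fat absorption and on the lymphatics of the gut wall through the receptors Ntsr1 and Ntsr2 and the sorting receptor Sort1. Secretin, the product of Sct, stimulates the pancreas to release bicarbonate, and peptide YY, the product of Pyy, slows the gut and reduces appetite. Enteroendocrine cells store such peptides in granules, together with the granins, and often make several of them. Signalling by bone morphogenetic proteins (BMP), which is strongest towards the villus tip, is known to change the hormones that these cells make.

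The 2 peptide genes with a UMI in every member were Nts, which the rule required, and Sct, which it did not use. Nts lies on chromosome 10 (102481756 to 102490486, minus strand) and Sct on chromosome 7 (141278330 to 141279133, minus strand) in the GRCm38 mouse genome, build mm10. Their promoters, from 250 bases before to 50 bases after the RefSeq start site, are shown so that the upstream sequence of these genes can be compared. The Nts window is chr10:102490369-102490668 and the Sct window chr7:141279084-141279383, both on the minus strand, 5′ to 3′, with motif matches in capitals.
Nts: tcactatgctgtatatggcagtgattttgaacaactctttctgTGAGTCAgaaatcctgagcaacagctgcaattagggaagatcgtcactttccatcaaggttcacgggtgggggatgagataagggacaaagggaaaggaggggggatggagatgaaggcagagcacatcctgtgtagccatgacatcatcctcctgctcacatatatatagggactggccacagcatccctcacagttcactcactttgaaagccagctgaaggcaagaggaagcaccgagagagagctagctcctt
Sct: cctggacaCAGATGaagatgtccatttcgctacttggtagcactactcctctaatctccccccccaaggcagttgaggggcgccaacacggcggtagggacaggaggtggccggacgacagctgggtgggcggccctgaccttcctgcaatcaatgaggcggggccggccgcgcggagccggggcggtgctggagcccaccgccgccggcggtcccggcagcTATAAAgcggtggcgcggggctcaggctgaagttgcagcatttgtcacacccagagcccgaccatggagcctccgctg
Searched on both strands were TGANTCA (the AP-1 motif), TGACGTCA (the cAMP response element), TATAAA (the TATA box) and CAGATG (an E-box that basic helix-loop-helix factors such as Neurod1 can bind). The Nts window held TGAGTCA, starting 207 bases before the start site. The Sct window held TATAAA at 28 bases and CAGATG at 242 bases before it. TGACGTCA was in neither window, and no match overlapped another. Among all 32817 RefSeq promoter windows of 300 bases, 7.81% held TGANTCA, 13.6% held TATAAA, 17.2% held CAGATG and 1.79% held TGACGTCA. A match is a description of letters and not a measured binding site.

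Members made up 3.22% of kept cells at E17.5 (95% Clopper-Pearson interval 2.73 to 3.77), 2.32% in the adult (1.87 to 2.85) and 1.88% after irradiation (1.44 to 2.42). Sorting can set such shares. Among cells in which 1 of the 6 hormones passed the same threshold, they were 14.7%, 5.53% and 3.89%. At E12.5 the rule found 0 members in 4226 kept cells, with a Clopper-Pearson upper limit of 0.0873%, while the limit of 3 counts for a count of 0 is 0.0710%. The 5 Nts UMIs of that library lay in 5 cells. The lowest Nts shares inside the threshold were 2.00%, 2.04% and 2.03% in the 3 libraries, and the highest outside it were 1.95%, 1.90% and 1.81%. A further 211, 26 and 20 cells had Nts as their highest hormone but below 2% of UMIs. No cell was removed by the insulin criterion. The libraries shared between 6 and 12 cell barcodes pair by pair. No barcode was shared between members of 2 libraries, and 1 adult member had a barcode that also occurs in the E12.5 library.

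The identity of the members was checked on markers that the rule did not use. All 11 enteroendocrine markers, among them the granins Chga and Chgb and the transcription factors Neurod1, Pax6 and Isl1, were detected in each library, and their summed level was 7231 counts per 1000000 UMIs (CPM) at E17.5, 10824 in the adult and 14356 after irradiation. Summed goblet markers stood at 8794, 4744 and 6300 CPM in members, so at E17.5 they lay above the enteroendocrine sum. Enterocyte markers stood at 3707, 3301 and 2494 CPM, and Paneth markers at 118, 9269 and 4593 CPM. Pancreatic acinar markers stood at 4073, 58.1 and 112 CPM. The enteroendocrine sum thus does not by itself set members apart from these cell types. Because the kit counts the 3' end of each molecule, these levels do not scale with gene length. Lymphatic endothelial cells also transcribe Nts. Of 9 of their markers, 4 had UMIs in members at E17.5 and 3 in each adult set, with a summed level of 54.9, 20.7 and 17.5 CPM, against 33.4, 14.4 and 21.2 CPM over all kept cells. At E17.5 most of these were 69 UMIs of Egfl7, an endothelial gene that Cck-dominant cells held at 99.6 CPM against 49.9 CPM in members. Cdh5, Kdr, Flt4, Mmrn1 and Pdpn had 0 UMIs in all 3 sets of members. Of 10 markers of enteric neurons and glia, 7 had UMIs in members at E17.5, 3 in the adult and 4 after irradiation, and their summed level of 186, 245 and 147 CPM lay above the 44.5, 58.2 and 74.6 CPM of all kept cells. Most of it was the receptor tyrosine kinase gene Ret, with 223, 51 and 32 UMIs in 99, 35 and 23 members, while Hand2 and Sox10 had 0 UMIs in each set. Of 10 immune markers 2 had UMIs in each set, 5, 4 and 4 UMIs in all. Pyy, the other gene named as a marker of these cells, did not mark most of them: a Pyy UMI was found in 90 of 148 members at E17.5, 18 of 88 in the adult and 15 of 60 after irradiation, and Pyy reached 1% of UMIs in 18, 2 and 3. The cells are therefore called Nts-dominant.

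Library depth and RNA quality differed between the sets of members and bear on each comparison below. The whole libraries held between 38648331 and 90674425 UMIs. At E17.5 the median member had 8660.5 UMIs (range 842 to 45235) with 2.57% mitochondrial UMIs, close to the Gcg-dominant cells (9543 UMIs, 2.47%) and the Cck-dominant cells (9787.5 UMIs, 2.20%) chosen by the same rule. In the adult the median member had 2092 UMIs and 12.04% mitochondrial UMIs, against 13645 UMIs and 3.897% in Cck-dominant cells. The irradiated members had 2690 UMIs and 12.2%, against 13941.5 UMIs and 4.04%. The members had the lowest median UMI count of the 6 hormone classes in both adult libraries. The nuclear RNA Malat1 together with Gm42418, Gm26917, Lars2, AY036118 and Neat1 took 1.11% of the members' UMIs at E17.5, 12.9% in the adult and 6.72% after irradiation, and in Cck-dominant cells 1.12%, 3.16% and 2.46%. In the adult libraries, differences between members and other classes and differences between stages thus move with depth, mitochondrial share and nuclear RNA, and the part of these in the results was not tested.

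**Figure D1:**
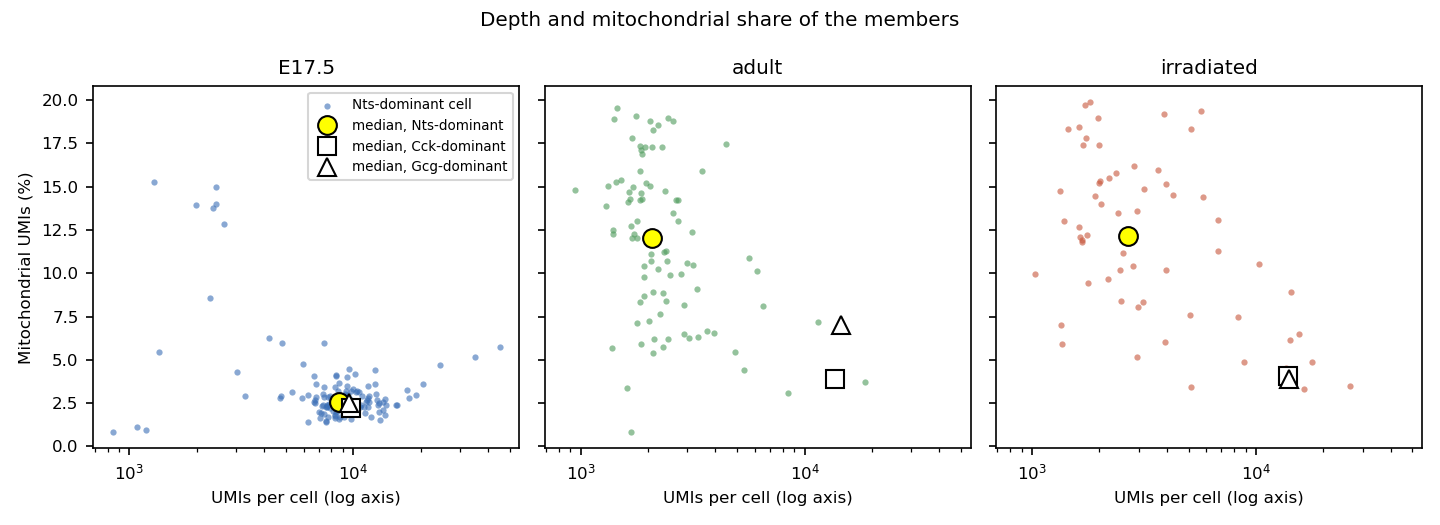
Mitochondrial share of UMIs (vertical axis, %) against UMIs per cell (horizontal axis, log scale) for each Nts-dominant cell (points), with the medians of Nts-dominant (circle), Cck-dominant (square) and Gcg-dominant cells (triangle). The 3 medians lie together at E17.5, while in the adult and irradiated libraries the members' medians of 2092 and 2690 UMIs lie far below those of the other classes.

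Only 7 of 88 adult and 17 of 60 irradiated members had at least 5000 UMIs, against 131 of 148 at E17.5. In each library Sct and Cck took a larger share of UMIs in these deeper cells. Their median Sct share was 9.63% of UMIs at E17.5, 16.8% in the adult and 14.1% after irradiation, against 5.69%, 2.74% and 1.82% in members under 5000 UMIs. The median Cck share was 1.25%, 3.13% and 2.12% in the deeper members and 0.262%, 0.209% and 0.394% in the shallower ones. The median Ghrl share was lower in the deeper members at E17.5 (0.0817% against 0.562%) and after irradiation (0.0487% against 0.0581%), and higher in the adult (0.749% against 0.0367%). Nts was also higher in the deeper members, by less in the adult and irradiated libraries than Sct and Cck were, at 10.9%, 6.56% and 7.44% against 3.62%, 4.57% and 6.66%. The median mitochondrial share was 2.54%, 7.18% and 7.48% in the deeper members and 5.97%, 12.4% and 13.6% in the shallower ones.

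Neurotensin was a large part of the RNA of these cells. The Nts share of a member's UMIs ran from 2.00% over a median of 9.94% to 28.4% at E17.5, from 2.04% over 4.71% to 15.7% in the adult, and from 2.03% over 6.99% to 25.7% after irradiation. It reached 10% in 73, 5 and 13 members. Summed over members, Nts stood at 106133 CPM, 58751 CPM and 92294 CPM. Cells picked by mesenchymal or tuft markers served as a background. Nts stood at 18.9 CPM in mesenchymal cells at E17.5, and at 69.9 and 180 CPM in tuft cells of the adult and irradiated libraries. The members' Nts levels lay far above these values. The irradiated tuft set was mixed: 185 of its 493 cells had Chgb and 123 had Chga at 1% of UMIs or more. In the adult set these were 43 and 18 of 1068. Values of the irradiated tuft set are therefore not a measure of free RNA alone. Nts was also made outside the members, since Cck-dominant cells had it at 6764, 5598 and 3623 CPM, with at least 1% of UMIs in 73 of 340, 41 of 267 and 78 of 726 cells.

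Secretin RNA was the other large part of these cells' hormone RNA. A Sct UMI in every member says little in the adult libraries, since 1068 of 1068 tuft cells in the adult and 491 of 493 after irradiation had one too, as did 68 of 173 mesenchymal cells at E17.5, so the share of UMIs is given. It ran from 1.10% over a median of 9.31% to 19.8% at E17.5, from 0.335% over 2.86% to 22.5% in the adult, and from 0.272% over 2.24% to 25.4% after irradiation. It reached 1% in 148 of 148, 76 of 88 and 48 of 60 members and exceeded Nts in 67, 26 and 18. Summed Sct levels were 92007 CPM at E17.5 (Poisson 95% interval 91502 to 92513), 71097 CPM in the adult (70036 to 72169) and 88170 CPM after irradiation (87085 to 89265). In the tuft cells, the median Sct share was 0.190% in the adult and 0.191% in the irradiated library, so the lowest Sct values of members lie near the level of these cells. The Sct and Nts shares of a cell were hardly related across members (Spearman's rho 0.07 over 148, 0.16 over 88 and 0.15 over 60 cells, which share a library and a range of depths).

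Cholecystokinin, which releases bile and pancreatic enzymes, stood next by summed level, at 15856, 14096 and 17641 CPM, above Pyy, Ghrl, Gcg and Gip in each library. By the median share it came after Gip in the adult. The median Cck share was 1.16% at E17.5, 0.224% in the adult and 0.407% after irradiation, and it reached 1% in 85, 15 and 13 members. The median in tuft cells was 0.058% in the adult and 0.098% in the irradiated library. Ghrl, the gene of the hunger hormone ghrelin, reached 1% in 45, 5 and 4 members, and Gcg, the gene of glucagon and the glucagon-like peptides, in 10, 0 and 0. Gip, the gene of a hormone that raises insulin release, reached 1% in 3, 1 and 0 members. It was the second-highest of the 6 genes in 56 of 88 adult members, at a median of 0.343% of UMIs, where tuft cells of the same library stood at 0.161%. At E17.5 the second-highest gene was Cck in 102 and Ghrl in 40 of 148 members, and after irradiation it was Cck in 40 and Gip in 12 of 60.

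Counted over Pyy, Cck, Ghrl, Gcg and Gip, 43 members at E17.5 had none of these genes at 1% of UMIs or more, 58 had 1, 39 had 2 and 8 had 3 or more. In the adult 70 members had none, 13 had 1 and 5 had 2, and after irradiation 44 had none, 12 had 1 and 4 had 2. Cck and Ghrl stood together at 1% in 32 members at E17.5, in 3 adult members and in 1 irradiated member. The Sct and Cck shares were positively related across members (rho 0.37, 0.48 and 0.45 over 148, 88 and 60 cells), in cells whose depth also differed as given above.

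**Figure D2:**
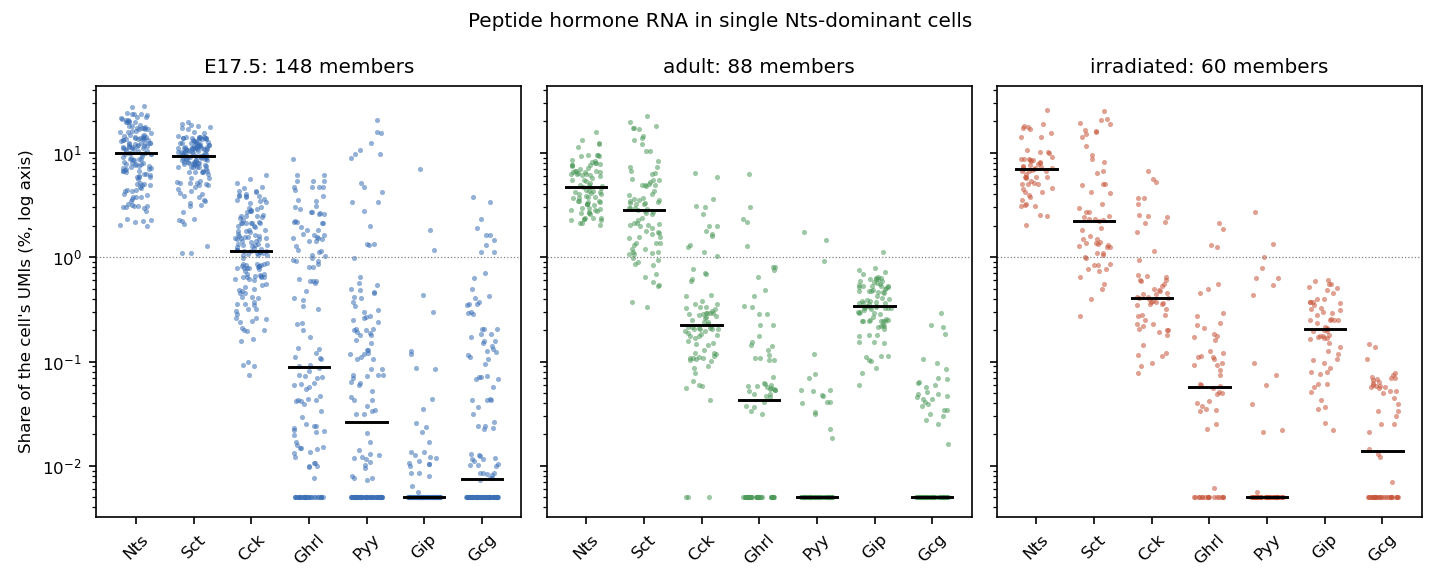
Share of each member's UMIs (%, log axis) that came from 7 peptide hormone genes, 1 panel per library, with a point for each cell and a bar for the median. Cells with no UMI are drawn at the foot of the axis and the grey line marks 1%. Nts and Sct lie highest in each panel, and Pyy is spread over cells at the foot and a few cells above 1%.

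Peptide YY was concentrated in few members. Of the Pyy UMIs, 93.8% at E17.5 lay in 18 members with Pyy at 1% of UMIs or more, 78.8% in the adult lay in 2 and 75.1% after irradiation in 3. The Pyy share of those members ran from 1.31% to 20.8%, from 1.45% to 1.74% and from 1.01% to 2.72%. Summed Pyy was 11999 CPM, 784 CPM and 3271 CPM over all members, and 862 CPM, 172 CPM and 986 CPM without those cells. After each cell had been thinned to 2000 UMIs, a Pyy UMI was present in 47.9% of 142 members at E17.5 (39.4 to 56.4), in 11 of 50 in the adult (11.5% to 36.0%) and in 25.6% of 39 after irradiation (13.0 to 42.1), with 6, 38 and 21 shallower members left out. The same share was 1.8%, 2.8% and 6.2% in the mesenchymal and tuft cells, and 91.9%, 45.5% and 76.0% in Gcg-dominant cells. Summed Pyy in Gcg-dominant cells was 21313, 563 and 9069 CPM. In the adult it thus lay below the members' 784 CPM, and 0 of 11 Gcg-dominant cells had Pyy at 1% of UMIs.

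The 18 Pyy-rich members at E17.5 had a median Sct share of 13.6% against 8.92% in the other 130. Their level of Gpr119, a lipid receptor of L cells, was 32.6 CPM against 0.833 CPM, and their level of Insl5, an L cell hormone of the distal gut, was 87.0 CPM against 10.8 CPM. Their depth was alike, at a median of 9583 UMIs against 8544. In the adult and irradiated libraries the Pyy-rich members were deeper than the rest, at medians of 4512.5 and 14366 UMIs against 2073 and 2496. These cells were set apart by their Pyy share after its distribution was seen, and the values are a description.

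Other messengers were low or present in few cells. Tph1, the first enzyme of serotonin synthesis, stood at 108 CPM at E17.5, 294 CPM in the adult and 413 CPM after irradiation. Thinned to 2000 UMIs, 15.5%, 46.0% and 43.6% of members had a Tph1 UMI, but 42.1% of the irradiated library's mixed tuft set had too. Without thinning, a Tph1 UMI was found in 42 of 148 members at E17.5, against 5 of 173 mesenchymal cells. It was found in 40 of 88 adult members against 182 of 1068 tuft cells, and in 31 of 60 irradiated members against 261 of 493. Tac1, the gene of substance P, had 113 UMIs at E17.5, of which 91.2% lay in 2 cells. Gal, the gene of galanin, had 100 UMIs in 42 members at E17.5, 1 UMI in the adult and 0 after irradiation. The neurotensin receptor Ntsr1 had no UMI in any member, Ntsr2 had 3 UMIs in the adult and 0 elsewhere, and Sort1 stood at 19.5, 53.9 and 56.0 CPM. Of the prohormone convertases, Pcsk1 had 158, 328 and 423 CPM, and Pcsk2 had 1, 1 and 0 UMIs. Bmi1, whose locus drives the reporter, had 21, 2 and 4 UMIs in members, or 15.2, 8.29 and 14.0 CPM. It stood at 10.3, 11.6 and 14.5 CPM in all kept cells, but the members' adult and irradiated counts are too few for a comparison. The reporter gene eGFP had 3, 0 and 4 UMIs in members.

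Members were then compared with Gcg-dominant cells, the L-like class with 86, 11 and 27 cells, and with Cck-dominant cells, with 340, 267 and 726 cells. UMIs were summed per library and class and fitted with edgeR's quasi-likelihood test, with the library as a block and Benjamini-Hochberg adjustment over all genes. The 8 genes of the rule were left out of totals and test. The unit is the library, so n = 3 pairs. Both comparisons use the same sums of members and are thus not independent of each other. Only at E17.5 did the classes match in depth and mitochondrial share, as given above.

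Against Gcg-dominant cells, 309 of 5674 genes were higher in members (5.45%) and 194 were lower (3.42%) at an adjusted p of 0.05 or less, and 473 of these 503 had the same direction in all 3 libraries. The counts were 388 and 402 without the E17.5 library, 211 and 80 without the adult library and 101 and 36 without the irradiated library. Without the library block they were 22 and 5.

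The gene with the largest fitted fold change above both classes was Adgrd1, the gene of an adhesion G protein-coupled receptor that raises cAMP, on chromosome 5 (129096750 to 129204599, plus strand). Members held 119, 233 and 116 Adgrd1 UMIs, in 62 of 148, 73 of 88 and 43 of 60 cells. Gcg-dominant cells held 0, 1 and 0. In CPM the members stood at 86.0 (71.2 to 103), 966 (846 to 1099) and 406 (335 to 487), with the adjusted p against Gcg-dominant cells at 6.95e-29 (edgeR's quasi-likelihood test). Against Cck-dominant cells, which held 5, 6 and 54 UMIs in 3, 5 and 38 cells, the log2 fold change was 6.93 (SE 0.40, adjusted p = 1.48e-63). Per library it was 5.28, 8.41 and 5.90 on the log2(CPM + 1) scale. Of all Adgrd1 UMIs in kept cells, members held 119 of 146 at E17.5, 233 of 348 in the adult and 116 of 349 after irradiation. No 2 members held more than 16.4% of the Adgrd1 UMIs of their library's members.

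Other surface and signalling genes were higher in members than in Gcg-dominant cells. Nt5e, which makes adenosine outside the cell, was higher by 4.89 on the log2 scale (SE 0.48, adjusted p = 3.79e-21), with 237, 119 and 80 UMIs against 6, 0 and 7. Grpr, the receptor of gastrin-releasing peptide, was higher by 3.97 (SE 0.49, adjusted p = 1.48e-13), and the somatostatin receptor gene Sstr1 by 2.96 (SE 0.51, adjusted p = 9.91e-07). Ret, a receptor of glial cell line-derived factors, was higher by 3.00 (SE 0.41, adjusted p = 7.69e-11). Samd11, a nuclear factor, had 59, 33 and 16 UMIs in members and 0 in Gcg-dominant cells of any library (adjusted p = 4.11e-15). Rassf9 (4.29, SE 0.50), Ambp (3.91, SE 0.47), Prss30 (3.86, SE 0.46) and Sema3f (4.18, SE 0.75) were higher as well. Each gene of this paragraph passed the threshold of edgeR's quasi-likelihood test also with any 1 library left out.

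Of 7 BMP response genes tested against Gcg-dominant cells, 5 were higher in members and 1 was lower, with a median log2 fold change of 2.29 beside 0.00 over all genes. Id1, Id2 and Id3, inhibitors of basic helix-loop-helix factors that BMP signals induce, were higher by 2.61 (SE 0.44), 2.09 (SE 0.42) and 2.29 (SE 0.41). Id1 stood at 819, 850 and 749 CPM in members, so that it hardly differed between the libraries. The inhibitory Smads Smad6 and Smad7, which damp the pathway, were higher by 3.42 (SE 0.78) and 2.91 (SE 0.41), and Bambi, a decoy receptor, was lower by 1.28 (log2 fold change -1.28, SE 0.37). Thinned to 2000 UMIs, an Id1 UMI was in 64.8%, 82.0% and 71.8% of members and in 12 of 86, 2 of 11 and 2 of 25 Gcg-dominant cells. Without the irradiated library the adjusted p was 0.110 for Id1, 0.300 for Id2, 0.116 for Id3 and 0.574 for Bambi, against 0.00598 for Smad6 and 0.000606 for Smad7 (edgeR's quasi-likelihood test). Bambi also missed the threshold without the adult library (0.125). Against Cck-dominant cells, 1 of 8 BMP response genes was higher, Smad7 (1.53, SE 0.29, adjusted p = 1.59e-05), and Bambi was lower (-1.35, SE 0.32), with adjusted p of 0.203 and 0.261 without the irradiated library. Id1 had a log2 fold change of 0.16 there (SE 0.32, adjusted p = 0.867).

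Sct was higher in members than in Gcg-dominant cells by 3.34 on the log2 scale (SE 0.79, adjusted p = 0.000964 in edgeR's quasi-likelihood test). The median Sct share of Gcg-dominant cells was 2.62% at E17.5, 0.493% in the adult and 0.428% after irradiation. The adjusted p was 0.273 without the adult library and 0.754 without the irradiated one. Tph1 was higher by 3.80 (SE 0.44), with 149, 71 and 118 UMIs against 0, 1 and 35. Pyy had a log2 fold change of -0.60 (SE 0.58, adjusted p = 0.575) and did not pass the threshold. Of the 9 other peptide and amine genes tested, 3 were higher (Sct, Vgf and Tph1) and 2 were lower (Iapp and Ucn3). Vgf, a granin-like precursor, had an adjusted p of 0.103 without the adult and 0.178 without the irradiated library, and Iapp and Ucn3 had too few UMIs to be tested without the E17.5 library. Against Cck-dominant cells Sct had -0.11 (SE 0.53, adjusted p = 0.954) and Pyy 1.10 (SE 0.39, adjusted p = 0.0817).

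Among 20 endocrine transcription factors tested against Gcg-dominant cells, 4 were higher in members and 4 were lower. Onecut3 was higher by 2.42 (SE 0.39, adjusted p = 1.03e-07 in edgeR's quasi-likelihood test), with Myt1, Prox1 and Egr3 at 1.20, 1.15 and 1.11. Among the lower ones were Isl1 (-1.44, SE 0.40), Nkx2-2 (-1.36, SE 0.36) and Etv1 (-1.24, SE 0.40), of which Isl1 and Nkx2-2 are homeodomain factors known from islet and gut endocrine cells. All 8 calls were lost without the irradiated library, where the adjusted p ran from 0.0590 for Onecut3 to 0.834 for Egr3. Those of Etv1 and Myt1 were lost without the adult library too (0.101 and 0.297). The gene Gpr119 was lower by 3.20 (log2 fold change -3.20, SE 0.48), with 7, 1 and 5 UMIs in members and 62, 14 and 34 in Gcg-dominant cells, as were the potassium channel gene Kcnk16 (-2.48, SE 0.41), the serine protease gene Fap (-4.42, SE 0.66) and the fructose transporter gene Slc2a5 (-3.44, SE 0.59). These 4 passed with any 1 library left out.

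Of 5 G2/M genes tested, 4 were lower in members than in Gcg-dominant cells, among them Mki67, a marker of dividing cells (-2.48, SE 0.60), with 13, 3 and 0 UMIs against 44, 21 and 1. Without the E17.5 library these genes had too few UMIs to be tested. Without the adult library 3 of the calls were lost (Top2a 0.148, Birc5 0.0698, Ube2c 0.611), and without the irradiated library that of Ube2c (0.0655). Markers of other epithelial cells also differed, with 4 of 6 Paneth, 3 of 4 goblet and 4 of 8 enterocyte markers higher in members and none lower. The alpha-defensin gene Defa30, for example, was higher by 2.05 (SE 0.53), with an adjusted p of 0.263 without the adult library and 0.274 without the irradiated one. Summed Paneth markers stood at 118, 9269 and 4593 CPM in members and at 397, 68975 and 111328 CPM over all kept cells. Both levels were higher in the adult than at E17.5, while from the adult to the irradiated library the members' level was lower and that of all kept cells higher. The part of free RNA in these differences was not tested.

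Against Cck-dominant cells, 326 of 10348 genes were higher in members (3.15%) and 158 were lower (1.53%), and 434 of these 484 had the same direction in all 3 libraries. Without the E17.5 library the counts were 650 and 545, without the adult library 144 and 115, and without the irradiated library 69 and 27. Without the library block they were 2 and 0, with 636 genes at an unadjusted p under 0.05.

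Of the genes of intestinal region, the transcription factor gene Osr2 was higher by 1.88 (SE 0.39, adjusted p = 0.000155 in edgeR's quasi-likelihood test) and passed with any 1 library left out. Its level at E17.5, in the adult and after irradiation was 27.5, 27.1 and 59.3 CPM in members (33, 6 and 15 UMIs) and 5.72, 7.35 and 21.1 CPM in Cck-dominant cells. Pdx1, a factor of the duodenum and pancreas, was lower (-2.41, SE 0.55), and its adjusted p was 0.352 without the E17.5 library.

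Rassf9 (4.70, SE 0.34), Rgs4, a regulator of G protein signals (3.69, SE 0.31), Samd11 (2.82, SE 0.33), Map3k6 (2.81, SE 0.34), Tub (2.80, SE 0.39) and Car4, a carbonic anhydrase (3.76, SE 0.39), were higher in members than in Cck-dominant cells with any 1 library left out. The same held for lower levels of Kcnk16 (-3.07, SE 0.37), Gast, the gene of gastrin (-3.25, SE 0.43) and Cd177 (-3.04, SE 0.56). Gast had 91, 1 and 2 UMIs in members against 2420, 105 and 466. Of 14 other peptide and amine genes tested, 6 were lower in members (Tac1, Gast, Iapp, Ucn3, Mboat4 and Reg4) and none was higher. Tac1 was lower by 1.78 (log2 fold change -1.78, SE 0.34). Without the irradiated library the adjusted p in edgeR's quasi-likelihood test was 0.159 for Tac1, 0.0911 for Reg4, 0.0663 for Mboat4 and 0.891 for Iapp. Without the E17.5 library it was 0.0592 for Ucn3, 0.353 for Mboat4 and 0.678 for Iapp.

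Among 18 receptors and nutrient sensors, 4 were higher (Adgrd1, Sstr1, Sstr2 and Slc15a1) and 2 were lower (Ffar2 and Gpr119). Ffar2, a receptor of short-chain fatty acids, was lower by 1.37 (log2 fold change -1.37, SE 0.31), with an adjusted p of 0.615 without the irradiated library. The calls of Sstr1, Sstr2 and Slc15a1 were lost without that library as well (0.619, 0.408 and 0.324), that of Sstr2 also without either other library (0.0810 and 0.120), that of Sstr1 without the adult library (0.222), those of Slc15a1 and Gpr119 without the E17.5 library (0.463 and 0.0803). Ffar1, the long-chain fatty acid receptor, had 0.31 (SE 0.29, adjusted p = 0.666 in edgeR's quasi-likelihood test). Of 23 granins and processing genes, 1 was higher, the synaptotagmin gene Syt7 (1.23, SE 0.29), and its adjusted p was 0.271 without the adult library and 0.513 without the irradiated one. None of 31 oxidative phosphorylation genes passed in either comparison, and neither of the medians of -0.59 and -0.46 belongs to a call.

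Between E17.5 and the adult, levels were compared as summed CPM, with a gene counted as higher or lower at a 2-fold ratio and at least 50 UMIs in either library. There is no test. Of 3738 genes, 405 were higher in adult members (10.8%) and 1228 were lower (32.9%), and the median log2 ratio of all of them was -0.51. The members' sums were 1384051 UMIs at E17.5 and 241136 in the adult, so 50 UMIs stand for a lower level at E17.5. A gene high at E17.5 thus passed the minimum more easily, which favours lower genes in these counts. With a minimum of 1 UMI, 3482 of 14325 genes were higher and 3842 were lower. With edgeR's TMM scaling the median was -0.77 and the counts 253 and 1570, and with Malat1 and the 5 RNAs named with it left out of the totals they were 510 and 982. The members' values below are relative to all their RNA and compare with that median of -0.51. Values of Cck-dominant cells compare with their own median of -0.06 over 7439 genes.

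Secretory and sensing genes stood above the members' median of all genes in the adult. Of 22 granins and processing genes, 4 were higher and 2 were lower, with a median log2 ratio of 0.26 (0.00 with TMM scaling, 0.08 in Cck-dominant cells), among them Syt7 (116 to 552 CPM) and Pcsk1 (158 to 328 CPM). Of 13 endocrine factors, 5 were higher and 1 was lower, with a median of 0.65, or 0.10 among members with at least 1000 genes and at most 10% mitochondrial UMIs. Neurod1, a late factor of the endocrine lineage, went from 441 CPM (406 to 477) to 1385 CPM (1241 to 1542) in the adult and stood at 1203 CPM (1080 to 1337) after irradiation. Isl1 stood at 113, 249 and 259 CPM. Pax4, a factor of early endocrine cells, had 79 UMIs in 52 members at E17.5 and 0 in the adult, at least 4.59-fold lower. Pax4 was 83.8 CPM at E17.5 and 12.5 CPM in the adult in Cck-dominant cells.

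Of 7 receptors and nutrient sensors, 2 were higher and 1 was lower in the adult. Adgrd1 had a log2 ratio of 3.48 and Ffar1 one of 1.95, from 108 CPM (91.7 to 127) to 423 CPM (345 to 514). Sstr5, a somatostatin receptor, had -1.22, from 82 UMIs to 6. Of 6 ion channel genes, 3 were higher and none was lower, the calcium channel gene Cacna1a at 187 and 879 CPM, the potassium channel gene Kcnb2 at 114 and 419 CPM and the sodium channel gene Scn3a. Of 15 immediate-early genes, 5 were higher and 1 was lower. Fosb stood at 290 and 1435 CPM and Klf4 at 116 and 647 CPM. Their median log2 ratio was 0.80 in members, 0.58 in Cck-dominant cells and 0.29 in members with at least 5000 UMIs.

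Oxidative phosphorylation genes stood lower. Of 31 nuclear genes of oxidative phosphorylation, 15 were lower and none was higher in the adult, with a median of -0.99 beside -0.51 over all genes. In Cck-dominant cells none of 31 passed in either direction, with a median of -0.16 beside -0.06 over all genes. In members with at least 5000 UMIs the median was -0.70. Examples were Cox8a (-2.05), Ndufb9 (-2.11) and Atp5l (-1.81). Mitochondrial transcripts made up 2.97% of the members' summed UMIs at E17.5 and 10.3% in the adult, and ribosomal protein genes 10.1% and 4.20%. Of 20 endoplasmic reticulum genes, 5 were lower, among them the translocon subunit gene Sec61b at 953 and 195 CPM, and 1 was higher, the chaperone gene Hspa5 at 702 and 1754 CPM, and their median of -0.41 lay near that of all genes. The depth and mitochondrial values given above moved with these lists, and their part was not tested.

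Of 12 fetal and imprinted genes tested, 6 were lower in adult members and none was higher, with a median of -2.29, which was -3.14 with the same 1000-gene and 10% limits and -0.39 over 11 genes among members with at least 5000 UMIs, where the median of all genes was -0.42. In Cck-dominant cells 10 of 14 were lower, with a median of -4.40. Meg3, an imprinted long RNA, had 743 UMIs in 118 of 148 members at E17.5, 0 in the adult and 1 after irradiation, at least 43.2-fold lower in the adult. H19 had 303 UMIs in 53 members and 0 in the adult (at least 17.6-fold lower), but 51.2% of these lay in 2 cells. Others at 0 UMIs in the adult were Bex4 (372 at E17.5, at least 21.6-fold), Stmn2 (133), Zdbf2 (120), Lrrn1 (89) and Ndn (84). Peg3, an imprinted zinc finger gene, did not follow these, at 684, 1315 and 892 CPM.

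Pyy was lower in the adult members (log2 ratio -3.93). Most of its UMIs lay in few cells, as given above. Without the members holding Pyy at 1% or more it was lower too, at 862 CPM at E17.5 and 172 CPM in the adult. Tac1 (-1.67), Gal (-3.83) and Gast (-3.70) were also lower, while Tph1 was higher (1.44), so that of 7 other peptide and amine genes 1 was higher and 4 were lower. Cdx2, a factor of intestinal identity, was lower, at 243 and 58.1 CPM.

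The highest and the lowest ratio among the named genes belonged to markers of other cell types. Defa30 had 0 UMIs at E17.5 and 535 in the adult, with a UMI in all 88 members (at least 1024-fold higher), and Defa17, Defa24, Defa29, Itln1 and Lyz1, all made by Paneth cells, were higher as well. Defa30 stood at 2219 CPM in adult members, 1227 CPM in Cck-dominant cells and 16255 CPM over all kept cells of the library. In the other direction stood digestive enzyme genes of the pancreas. Ctrb1 had 2000 UMIs at E17.5 and 0 in the adult (at least 116-fold lower), of which 89.4% lay in 2 members, and Clps had 2770 and 8. Over all kept cells Ctrb1 stood at 8395 CPM at E17.5 and 0 in the adult. The summed Paneth markers stood at 397 CPM over kept cells at E17.5 and 68975 CPM in the adult, and the 12 acinar markers at 14959 and 614 CPM, against 4073 and 58.1 CPM in members. Members and whole library thus differed in the same direction for both lists, and the part of free RNA in the members' values was not tested. Other genes high in the adult were Slc8a1, a sodium-calcium exchanger (3.83, 3.21 to 4.63), Errfi1, an inhibitor of EGF receptor signalling (3.74, 3.36 to 4.18) and Hist1h1e, a linker histone (3.80, 3.19 to 4.61). In members with at least 5000 UMIs these 3 log2 ratios were 2.05, 1.92 and 1.84.

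**Figure D3:**
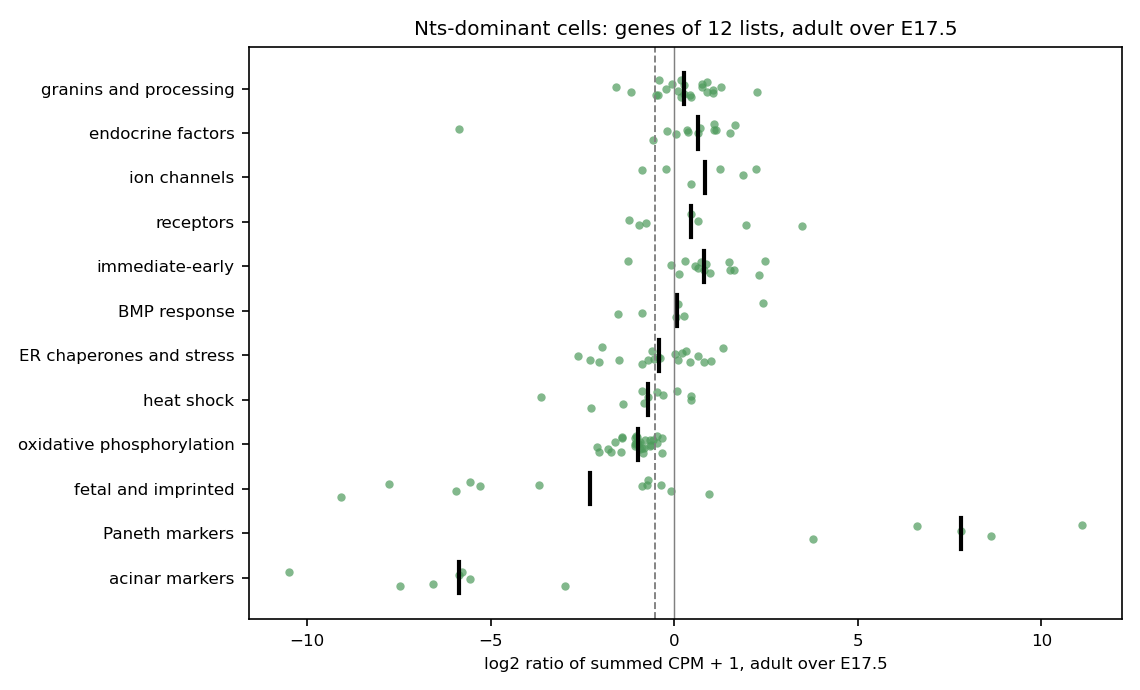
Log2 ratio of summed CPM + 1, adult over E17.5, for the genes of 12 lists in Nts-dominant cells (points), with the median of each list (bar) and of all 3738 genes (dashed line at -0.51). The point farthest right is a Paneth marker and the one farthest left an acinar marker, and most oxidative phosphorylation genes lie left of the dashed line.

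After irradiation, few genes could be measured in members, since both adult sets are shallow: 705 genes reached 50 UMIs. Of these 36 were higher in irradiated members (5.11%) and 26 were lower (3.69%), with a median log2 ratio of 0.15 (0.07 over 9785 genes in Cck-dominant cells). With Malat1 and the 5 RNAs named with it left out of the totals the counts were 27 and 36, and among members with at least 5000 UMIs 33 and 2. This comparison shares the adult library with the one above.

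Of 12 granins and processing genes 1 was higher in irradiated members (8.3%) and none lower, with a median of 0.49. The median of 23 such genes in Cck-dominant cells was 0.25. The summed level of the list went from 12790 to 17120 CPM in members, from 19963 to 26888 CPM in Cck-dominant cells and from 12741 to 23173 CPM over all kept cells. Chgb stood at 4495 CPM (4232 to 4771) and 6237 CPM (5951 to 6534), and Chga at 1352 (1209 to 1507) and 2015 (1854 to 2186). The gene past 2-fold was Resp18, an endoplasmic reticulum protein of endocrine cells, at 257 and 633 CPM. Of 9 endocrine factors, 1 was higher (Egr3, 153 and 353 CPM) and none was lower, and of 16 immediate-early genes the same gene was higher and none was lower. Of 12 endoplasmic reticulum genes none passed, and of 22 oxidative phosphorylation genes 1 was lower and none was higher.

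Adgrd1 was lower in irradiated members, with a log2 ratio of -1.25 (-1.59 to -0.92), from 966 to 406 CPM. Among members with at least 5000 UMIs the ratio was -0.49, from 53 UMIs in all. Smad7 was lower too, at 344 and 161 CPM, while the Id genes did not reach 2-fold. The list of 4 BMP response genes tested had 1 lower and none higher, with a median of -0.30.

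Pyy was higher in irradiated members (2.06, 1.83 to 2.29), but 54.3% of its UMIs lay in 2 cells and a UMI was found in 15 of 60 members against 18 of 88. Without the members holding Pyy at 1% or more it was higher too, at 172 CPM in the adult and 986 CPM after irradiation. Reg4, a secreted lectin of enteroendocrine and goblet cells, had a log2 ratio of 2.18 (1.75 to 2.66), with a UMI in 50 of 60 members against 35 of 88, and 56.6% of its UMIs in 2 cells. Reg4 was higher in Cck-dominant cells too, at 423 CPM in the adult and 1619 CPM after irradiation. Zg16, a goblet cell lectin, had 1 UMI in adult members and 99 in 51 of 60 irradiated members (6.08, 3.87 to 11.70). Zg16 also went from 1.78 to 1177 CPM in Cck-dominant cells and from 31.9 to 6532 CPM over all kept cells. Spink4, another goblet gene (1.85), had 62.8% of its UMIs in 2 cells, and went from 115 to 737 CPM in Cck-dominant cells. Rbp4, which carries retinol (1.55, 1.29 to 1.82), stood at 634 and 1858 CPM, and Ftl1, a ferritin chain, at 199 and 742 CPM. Fabp5, a fatty acid carrier (1.62), had 47.3% of its UMIs in 2 cells.

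Of 30 p53 target genes, 3 reached 50 UMIs in members, of which 1 was higher (Rps27l, 1.01) and none was lower, with a median of 0.60. In Cck-dominant cells 13 of 27 were higher and none was lower, with a median of 0.75. Below the UMI minimum in members, Phlda3 had 0 UMIs in the adult and 17 in 11 irradiated members, Ccng1 had 5 and 25 UMIs, and Trp53inp1 had 11 and 49. Cdkn1a, the cell cycle inhibitor that p53 induces, stood at 369 CPM (296 to 454) and 560 CPM (476 to 654), against 545 and 858 CPM in Cck-dominant cells. Whether irradiated members differ from Cck-dominant cells in this list was not tested.

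Lower in irradiated members were Defa17 (-3.33), Lars2 (-2.75), Hist1h1e (-2.32) and Fabp1, an enterocyte fatty acid carrier (-1.71). Defa17 was lower over all kept cells as well, at 8941 and 1792 CPM, as was Lars2, at 878 and 212 CPM. Fabp1 was lower in Cck-dominant cells too, at 969 and 383 CPM. Among members with at least 5000 UMIs the ratio of Fabp1 was -0.39, and that of Kdm5a, a histone demethylase gene (-1.47 over all members), was -0.16.

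**Figure D4:**
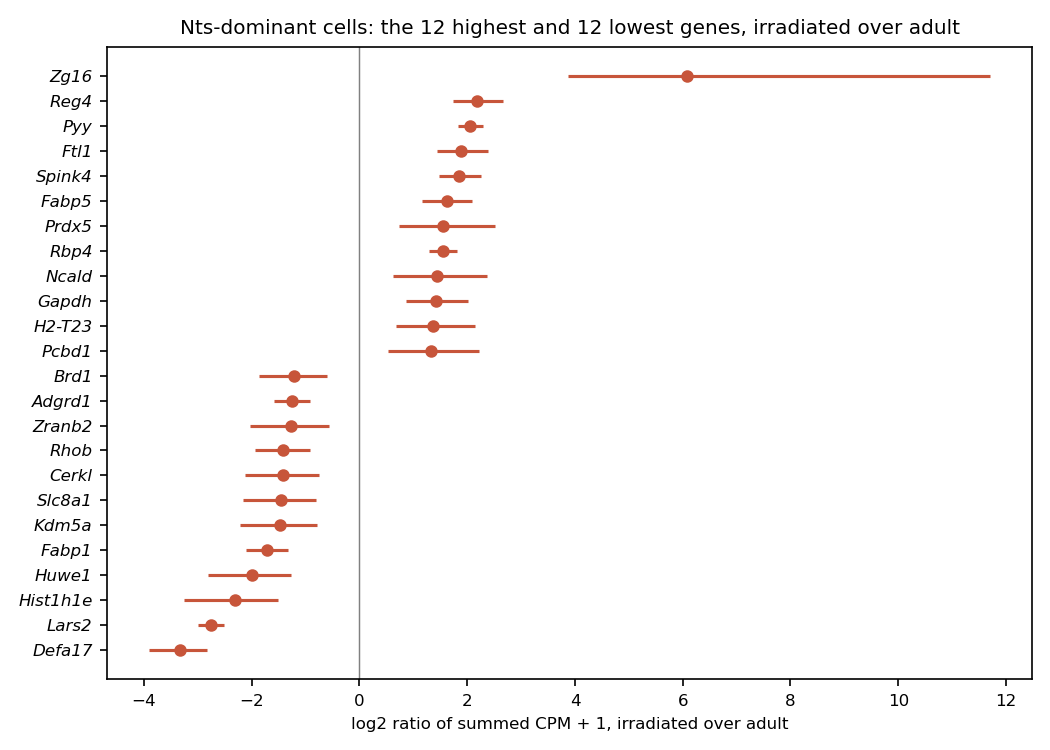
Log2 ratio of summed CPM + 1, irradiated over adult, of the 12 highest and the 12 lowest genes in Nts-dominant cells, with 95% intervals of counting error (bars). Zg16 lies farthest right at 6.08 with the widest interval, and Defa17 farthest left at -3.33.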

How the data were processed

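Single-cell RNA was measured in 4 libraries, 1 for each of E12.5, E17.5, adult and irradiated adult, over 31054 features. Per the submitters' processing notes, reads were processed with Cell Ranger 3.1.0 and build mm10. The deposited values are raw UMI counts per gene and barcode, whole numbers without normalization. How the authors chose the barcodes is not given in the sources used here.

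Counts were read with Python 3.11.15 and summed per library and class. Putative doublets, scored with Scrublet in scanpy 1.11.5 at 0.8% per 1000 barcodes (6, 0 and 1 members), were kept. Scrublet's automatic threshold called 26, 3 and 1 cells, too few to be relied on. Mesenchymal and tuft cells serving as background had at least 20 and 10 UMIs of their markers, and 123 of the 493 irradiated tuft cells had Chga at 1% of UMIs or more. Levels are CPM with exact Poisson intervals, ratios log2((CPM + 1)/(CPM + 1)) with conditional intervals, shares carry Clopper-Pearson intervals, all at 95%. A fold against 0 UMIs was computed with 3 UMIs in their place.

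Classes were compared with edgeR 4.0.16 in R 4.3.3 (TMM, quasi-likelihood, library as block, genes with at least 10 UMIs in 3 of 6 sums). The fit was also run on simulated counts, with known changes placed only in genes with many UMIs in all 6 sums. That run cannot show how genes with few UMIs are recovered. Nor does it cover classes that differ in mitochondrial share or nuclear RNA, as the real ones do. Both classes of a pair come from the same library, which is the pairing. The p-values rest on 6 sums from 3 libraries that differ in stage or treatment, with a dispersion estimated in part over all genes. A small p-value therefore does not measure the spread between libraries of 1 gene alone. Nor does it measure the spread between animals, whose number in a library is unstated. DESeq2 1.42.0 was an alternative.

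Named genes are the 12 highest and 12 lowest of each comparison, for the ratios with at least 50 UMIs and a UMI in 20% of members of the higher library, without mitochondrial, ribosomal protein, sex-linked and predicted genes, and members of 32 gene lists. The members, lists and classes were chosen with earlier results of these data known. Gene positions are from GENCODE M21. Promoter sequences are from RefSeq (GRCm38.p6), in which both genes matched. Some genes counted in the lists are not reported here by name.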

Additional observations from a re-analysis of the deposited data

Results flagged for a closer look

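Iapp, the gene of islet amyloid polypeptide, differed in direction between libraries. Its log2 ratio in Nts-dominant over Gcg-dominant cells was -6.05 at E17.5, 2.05 in the adult and -2.37 after irradiation, on the log2(CPM + 1) scale. The adult value rests on 6 UMIs in members and 1 in Gcg-dominant cells, against 24 and 1136 at E17.5. The difference between libraries was not tested.

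The E12.5 library entered no comparison because no cell met the rule. It held 5 Nts UMIs in its 4226 kept cells, each in a different cell, or 0.0561 CPM. The limit of 3 counts given above belongs to the count of 0 members and sets no threshold for these UMIs. Whether they are free RNA was not tested.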

How the results depend on the processing

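The share of members among kept cells, counted with Nts at 5% of UMIs or more, was 2.56% at E17.5 and 1.06% in the adult. It was 2.65% at E17.5 where Nts had at least 2 times the UMIs of the next hormone, 1.72% of every adult barcode, and 1.53% and 0.906% in the adult and irradiated libraries with at least 1000 genes and at most 10% mitochondrial UMIs. Of 18 such values 12 moved by less than their counting interval.

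The UMI minimum set the counts of genes past 2-fold. Minimums of 1, 20 and 200 UMIs gave 3482, 1024 and 46 genes higher and 3842, 1845 and 486 lower in the adult than at E17.5, and 2549, 176 and 8 higher and 2551, 144 and 6 lower in the irradiated adult than in the adult. Adult over E17.5, 253 genes were higher with TMM factors, 262 with Nts at 5% or more and 268 among members with at least 5000 UMIs. Irradiated over adult, 16 were lower under the stricter cell filter, 8 with Nts at 5% or more and 2 among members with at least 5000 UMIs. Other settings were run for 48 gene ratios, those of the named genes, and for 30 list medians. None of these that was past 2-fold changed sign.

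Against Gcg-dominant cells, DESeq2 called 126 genes higher and 72 lower, the fit without replicate block 22 and 5, members with Nts at 2 times the next hormone 101 and 26, members without putative doublets 124 lower, and cells thinned to 2000 UMIs 64 and 40. Leaving out 1 library gave between 101 and 388 higher and between 36 and 402 lower. Against Cck-dominant cells, DESeq2 called 124 and 54, the fit with every gene 210 higher, the fit without replicate block 2 and 0, and thinned cells 86 and 43. Leaving out 1 library gave between 69 and 650 higher and between 27 and 545 lower. Of 361 values for named genes 304 stayed past the threshold, 57 did not, and none changed sign. A gene with too few UMIs to be tested in a setting, or without an adjusted p there, gave no value. Against Gcg-dominant cells, for example, Mki67 was tested in 5 other settings and Adgrd1 in 9. The 304 values therefore leave out settings in which genes with few UMIs dropped out. The members with at least 5000 UMIs, the thinned fit, the totals without Malat1 and its companions and Pyy without its richest members were chosen after seeing the data. Pyy without the members holding at least 1% was 862, 172 and 986 CPM. The low depth of adult and irradiated members limits which genes could be compared, and 1 library a group leaves stage, animal and library together, so that they cannot be told apart.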
